A study of Oryza sativa with 4 samples.

Results

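Diterpenoid phytoalexins are the antimicrobial labdane-related compounds of rice, and 10 genes for enzymes of their synthesis were followed here across 4 arrays: CPS2, CPS4, KSL4, KSL7, KSL8, KSL10, CYP76M7, CYP76M8, CYP71Z6 and CYP99A3. A probe set was taken for a gene when its single annotated rice gene carried one of these names as symbol or synonym, with the prefix Os and letter case ignored. Of the 10 names, 9 were matched, by 10 probe sets among 57258, and KSL8, named for the synthase of the oryzalexin S precursor, was not analysed here. The name CYP76M7 was matched to a gene on chromosome 6 of the annotation, LOC4341447. Its older locus tags include OsJ_07204, between the tags OsJ_07203 of CYP76M8 and OsJ_07206 of CYP71Z6 on chromosome 2. They also include OsJ_21875, which is outside that run of numbers. The gene behind the CYP76M7 probe set is therefore uncertain.

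The RNA came from the collar of the rice flag leaf, the lamina joint between blade and sheath, taken as a segment of 1 cm and frozen at harvest. Plants of the lc1 mutant and wild-type plants were each measured on 2 Affymetrix Rice Genome arrays, which the labels call biological replicates, and neither cultivar, plant age nor kind of allele is given in the sources used here. Whether the lc1 samples came from 1 line, or each from pooled plants, is not stated either. The literature identifies LC1 with GH3.1, an enzyme that conjugates auxin to amino acids. Its probe set gave 1.11 and 9.78 on the wild-type arrays, both under the level of control probe sets without a rice target, against 450.6 and 422.9 on the lc1 arrays.

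Rice makes its diterpenoid phytoalexins from geranylgeranyl diphosphate, a precursor shared with gibberellin synthesis. Copalyl diphosphate synthases (CPS) fold it into the ent or the syn form, kaurene synthase-like enzymes (KSL) make each skeleton, and cytochromes P450 (CYP) oxidise it. Most genes of the momilactone route lie together on chromosome 4, and most of the phytocassane route on chromosome 2. Leaves are known to switch these genes on together after fungal attack, elicitors, ultraviolet light or jasmonate treatment.

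Signals are MAS 5.0 signals divided by the median of their array and brought to a common median of 13.1. Before scaling, array medians were 11.8 and 12.1 for the wild type against 16.1 and 13.0 for lc1, with a median difference of 0.22 over tested probe sets, lc1 minus wild type, on the log2 scale. Probe sets without a rice target set a floor of 10.1 to 13.0 scaled units on the 4 arrays. Gapdh 5′ over 3′ signal, which falls with RNA degradation, was 0.164 and 0.236 for wild type 1 and 2 against 0.246 and 0.138 for lc1 mutant 1 and 2. The blade genes RBCS and CAB2R were bright on every array, with summed signals of 12940 and 14061 in the wild type against 11742 and 13924 in lc1. Of 4 names listed for collar and ligule 3 were measured, and how specific they are to these tissues was not tested. LG1 gave 147.2 and 261.2 in the wild type against 107.6 and 137.3 in lc1, DWARF gave 48.5 and 37.8 against 169.0 and 151.8, and BU1 gave 48.7 and 82.0 against 60.8 and 80.1. The 3 genes together summed to 244.4 and 381.1 against 337.4 and 369.3, a sum in which LG1 and DWARF went opposite ways. SHR1 and SCR1, 2 of 4 names listed for root, summed to 57.6 and 75.0 against 53.2 and 34.7. The other names, RCC1 and RCC3, were not matched. Whether SHR1 and SCR1 mark root cells in a leaf segment was not tested. SHR1 was under the floor on lc1 mutant 2, at 1.62, and not far over it on the other arrays. Total RNA of a whole segment was hybridised, so fewer cells of a type and less RNA per cell cannot be told apart.

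The 2 lc1 arrays disagreed on these genes. On lc1 mutant 1, 8 of the 9 genes stood above both wild-type arrays, by 2.29-fold to 17.0-fold over the geometric mean of the wild type. On lc1 mutant 2, 7 of the 9 stood below both wild-type arrays, and 6 did with signals as deposited. Over all 34355 tested probe sets the shares were 32.3% above both wild-type arrays on lc1 mutant 1 and 37.4% below both on lc1 mutant 2. A signal on lc1 mutant 1 at least 2-fold above each of the other 3 arrays was found for 7 of the 9 genes and for 2.38% of tested probe sets. At least 2-fold above the wild-type mean on lc1 mutant 1 were 8 of the 9 genes, beside 7.97% of tested probe sets. On lc1 mutant 2, 1 was at least 2-fold above that mean (CYP76M7, beside 4.93%) and 4 were at least 2-fold below it (CPS4, CYP71Z6, CPS2 and KSL10, beside 6.24%). A position above both wild-type arrays on lc1 mutant 1 together with one below both on lc1 mutant 2 held for 6 of the 9 genes and for 7.29% of tested probe sets. CYP76M7 and CYP71Z6 are the exceptions in which both lc1 arrays lay on one side of the wild type, and they lay on opposite sides. All 9 genes passed the filter on dim probe sets, a mean log2 signal over the 4 arrays at or above the 40th percentile.

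**Figure D1:**
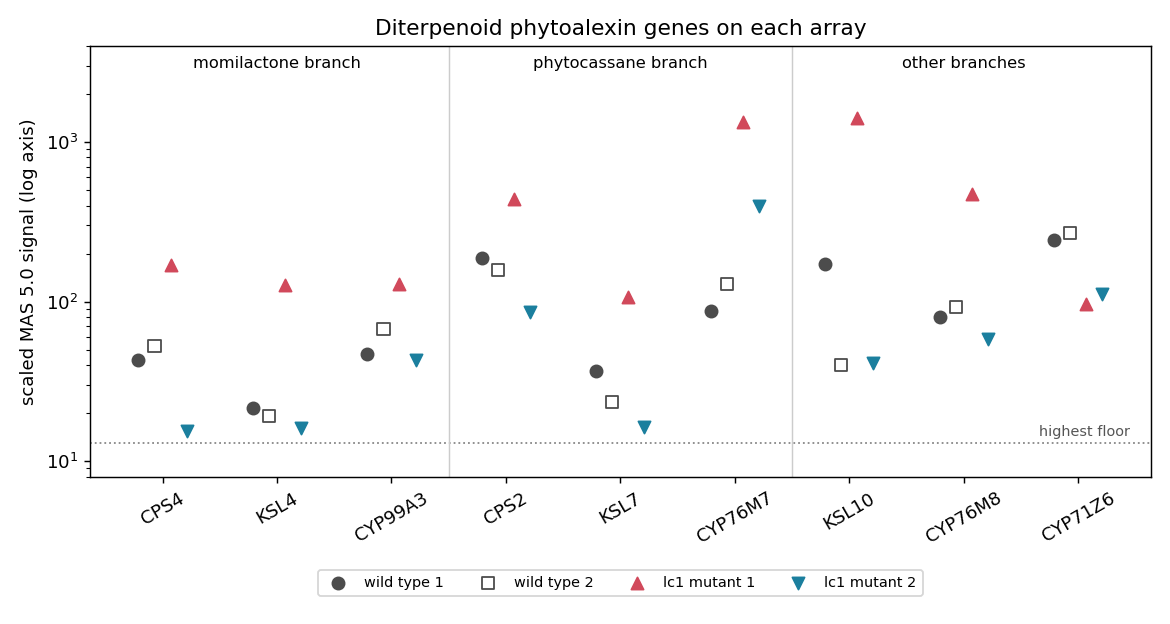
Scaled MAS 5.0 signal on a log axis for each of the 9 genes, with 1 symbol per array and no averaging; the dotted line is the highest floor of the 4 arrays, 13.0. The lc1 mutant 1 array is the highest of the 4 for each gene except CYP71Z6, where both lc1 arrays lie below both wild-type arrays.

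Of the momilactone branch, CPS4 makes syn-copalyl diphosphate, the entry step. It gave scaled signals of 43.3 and 52.8 in the wild type, 169.6 on lc1 mutant 1 and 15.5 on lc1 mutant 2. Both wild-type arrays lay close together, with lc1 mutant 1 3.55-fold above their mean and lc1 mutant 2 3.09-fold below it, the lowest of the 9 genes on that array relative to the wild type. The CPS4 signal on lc1 mutant 2 was not far over the floor of that array, 13.0. KSL4 turns syn-copalyl diphosphate into syn-pimaradiene, the momilactone skeleton. Its signals were 21.4 and 19.2 in the wild type, 127.2 on lc1 mutant 1 and 16.2 on lc1 mutant 2. Relative to the wild-type mean, lc1 mutant 1 stood 6.27-fold higher, and the other 3 arrays were within a narrow range not far over the floor. CYP99A3 oxidises syn-pimaradiene. It gave 46.9 and 67.6 in the wild type, 128.7 on lc1 mutant 1 and 42.9 on lc1 mutant 2, so lc1 mutant 1 was again highest, at 2.29-fold over the wild-type mean, and lc1 mutant 2 was lowest.

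Of the phytocassane branch, CPS2 makes ent-copalyl diphosphate for defence compounds. Its signals were 188.8 and 158.5 in the wild type, 438.0 on lc1 mutant 1 and 85.7 on lc1 mutant 2, with the lc1 arrays on either side of the wild type, at 2.53-fold above and 2.02-fold below its mean. KSL7 makes ent-cassadiene, the phytocassane skeleton, and gave 36.9 and 23.6 in the wild type, 107.2 on lc1 mutant 1 and 16.4 on lc1 mutant 2. Its arrays had the same order as for CPS2, and lc1 mutant 1 stood 3.64-fold above the wild-type mean. A further KSL7 probe set was under the floor on all 4 arrays, so its log2 difference of -0.67 compares signals at control level. CYP76M7 is known as the ent-cassadiene C11-hydroxylase, but which gene its probe set measures is uncertain, as said above. The probe set matched to CYP76M7 gave 86.7 and 129.2 in the wild type, 1338 on lc1 mutant 1 and 395.4 on lc1 mutant 2. Both lc1 arrays were above both wild-type arrays, by 12.6-fold and 3.74-fold over their mean.

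The momilactone and phytocassane branches had nearly the same median on lc1 mutant 1 relative to the wild-type mean, at log2 differences of 1.83 and 1.86 over 3 genes each. The medians on lc1 mutant 2 were -0.39 for momilactone and -0.85 for phytocassane genes. Within a branch the genes lay farther apart than these medians did. On lc1 mutant 2 the momilactone genes ran from -1.63 for CPS4 to -0.33 for KSL4, and the phytocassane genes from -1.01 for CPS2 to 1.90 for CYP76M7. Leaving CYP76M7 out gave phytocassane medians of 1.60 for lc1 mutant 1 against -0.93 for lc1 mutant 2. With the other genes of each route added (CYP99A2 and MAS, and CYP71Z7), the momilactone medians stayed at 1.83 and -0.39 over 5 genes, and the phytocassane medians were 2.14 and -0.93 over 4 genes. With 1 lc1 array behind each of these values, a difference between the branches was not tested.

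The remaining genes lay far apart on lc1 mutant 1, from -1.40 for CYP71Z6 to 4.09 for KSL10 relative to the wild-type mean on the log2 scale, and close together on lc1 mutant 2. KSL10 makes ent-sandaracopimaradiene, the precursor of oryzalexins A to F. It gave 170.9 and 40.1 in the wild type, 1407 on lc1 mutant 1 and 41.3 on lc1 mutant 2, with the widest spread of the 9 genes in both genotypes. Its lc1 mutant 1 signal was 34.1-fold that of lc1 mutant 2, and wild type 1 was 4.26-fold above wild type 2, so lc1 mutant 2 lay within the wild-type range. CYP76M8 oxidises several of these skeletons and serves more than one branch. It gave 79.6 and 92.0 in the wild type, 470.1 on lc1 mutant 1 and 58.1 on lc1 mutant 2, in the order of CPS4. The CYP76M8 probe set is of the type that can detect near-identical copies. Its neighbour LOC4329723 gave 90.9 and 120.5 against 530.6 and 63.1, so the signals of both may not be independent. LOC4329723 stands between CYP76M8 and KSL7, where the older tag OsJ_07204 would fall by its number. Whether LOC4329723 is the CYP76M7 of the literature was not tested.

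CYP71Z6, known as an ent-isokaurene C2-hydroxylase of the oryzalide route, was the 1 gene lower on both lc1 arrays. Its signals were 242.7 and 268.6 in the wild type, 96.5 on lc1 mutant 1 and 111.6 on lc1 mutant 2. Wild-type arrays averaged 255.6 ± 18.3 (SD, n = 2) against 104.0 ± 10.6 (SD, n = 2) for lc1, a log2 difference of -1.30 ± 0.27 (SE). The genotypes did not overlap, as for 23.2% of tested probe sets in this direction, and the arrays of each genotype lay close together. CYP71Z7, the next gene in the cluster, is known for the C2-hydroxylation of ent-cassadiene. It gave 371.4 and 289.3 in the wild type, 1743 on lc1 mutant 1 and 102.2 on lc1 mutant 2. On lc1 mutant 1 the pair therefore lay on opposite sides of the wild type, whereas on lc1 mutant 2 both were below it.

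The comparison of lc1 with the wild type asks which of these genes differ by genotype in the tissue where the leaf angle is set. With limma over all 34355 tested probe sets, 0 of the 9 genes passed an adjusted p of 0.05, against 0.0233% of probe sets called higher and 0.00291% called lower. At an unadjusted limma p under 0.05 there were 2, CYP76M7 higher and CYP71Z6 lower, against 3.39% and 4.77% of probe sets. CYP76M7 had a log2 difference of 2.78 ± 0.51 (SE), from 107.9 ± 30.1 (SD, n = 2) for wild-type arrays against 866.5 ± 666.3 (SD, n = 2) for lc1 arrays, and a limma adjusted p of 0.167. Its genotypes did not overlap, as for 16.4% of tested probe sets in this direction. CYP71Z6 had a limma adjusted p of 0.242. For the other 7 genes the genotypes overlapped, with log2 differences from 0.10 for CPS4 to 1.54 for KSL10, standard errors from 0.50 to 1.35 and limma adjusted p from 0.731 to 0.985. The median over the 9 genes was 0.51, against -0.05 over all tested probe sets. Apart from limma, an exact 2-sided permutation of 2 against 2 arrays cannot give a p under 0.333.

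**Figure D2:**
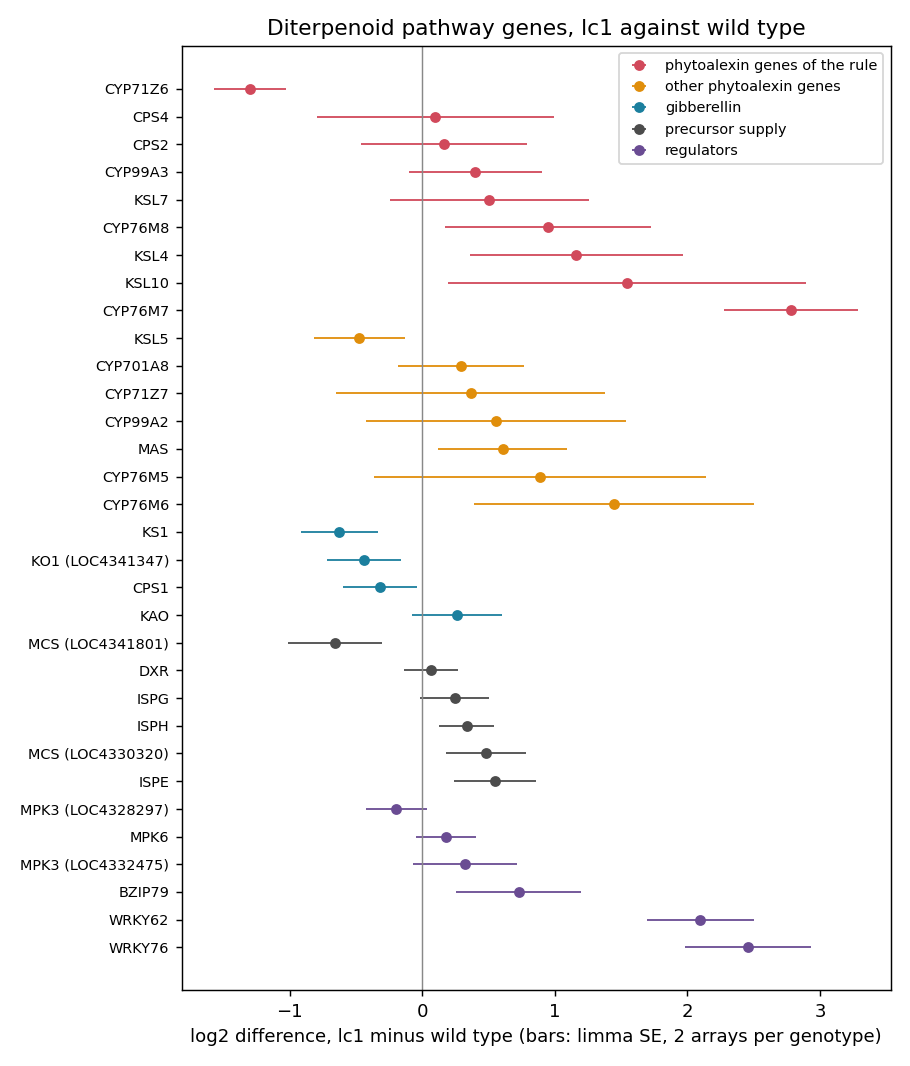
Log2 difference of lc1 minus wild type for each tested gene of the diterpenoid pathway, with bars of 1 limma standard error from 2 arrays per genotype; colours mark the gene lists. CYP76M7 at 2.78 and CYP71Z6 at -1.30 lie farthest from 0 among the 9 genes for their errors, and KSL10 has the widest bar, 1.35.

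Most of these values depended on which lc1 array was kept. Without lc1 mutant 2, 8 of the 9 genes passed limma, 7 of them higher and CYP71Z6 lower, against 1.98% and 1.41% of all tested probe sets. The lone lc1 array is then assumed to vary like the wild type, and the limma adjusted p ran from 5.24e-05 for CYP76M7 to 0.0290 for CPS2, with CYP99A3 at 0.108. Without lc1 mutant 1, 1 of the 9 passed, CYP76M7 with a log2 difference of 1.90 and a limma adjusted p of 0.0147, against 0.189% of probe sets called higher and 0.55% lower. The log2 differences of CPS2, CPS4, KSL4, KSL7, KSL10, CYP76M8 and CYP99A3 then turned negative, from -0.33 for KSL4 to -1.63 for CPS4, and CYP71Z6 gave -1.19 with a limma adjusted p of 0.118. CPS4 also turned, to -0.04, without wild type 1. KSL10 was at 2.59 without wild type 1 and at 0.50 without wild type 2. Without wild type 1 or wild type 2, 0 of the 9 passed.

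**Figure D3:**
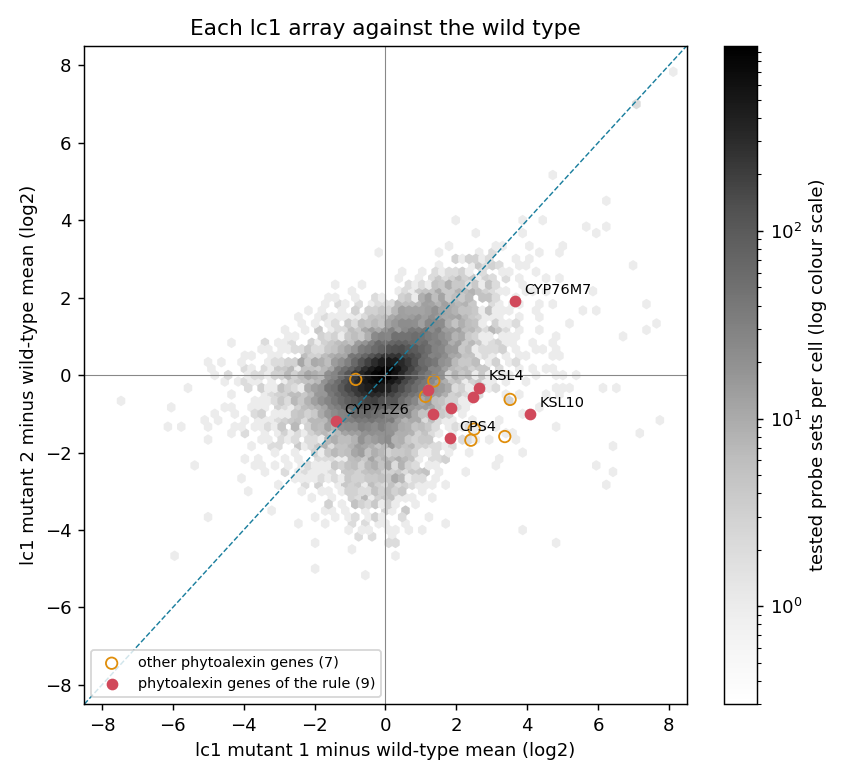
Log2 difference from the wild-type mean on lc1 mutant 1 (horizontal) and lc1 mutant 2 (vertical) for all 34355 tested probe sets in grey, the 9 genes as filled points and 7 other phytoalexin genes as open circles; the dashed line marks equal values. Of the 9 genes, 7 lie to the right of 0 and below it, CYP76M7 is above 0 on both axes, and CYP71Z6 is below 0 on both.

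The order of the genes along the chromosomes gave a closer view of the same pattern. In the annotation the chromosome 2 cluster runs from CYP76M5 to CYP76M6 over 10 protein-coding genes, of which 9 had a probe set, and the chromosome 4 cluster from CPS4 to CYP99A2 over 6 genes, of which 5 had one. This span was chosen after values had been seen, and CYP76M7, annotated elsewhere, is not in it. Of these 14 genes, 11 were at least 2-fold higher on lc1 mutant 1 than on each of the other 3 arrays, 7 on chromosome 2 and 4 on chromosome 4, beside 2.38% of all tested probe sets. Of the 14, 7 are among the 9 genes counted above. All 14 were below both wild-type arrays on lc1 mutant 2, beside 37.4% of tested probe sets, and 11 of 14 were so with signals as deposited, 13 with a common trimmed mean and 12 after quantile normalization. The exceptions on lc1 mutant 1 were CYP71Z6 and KSL5, which were lower there than in the wild type, and CYP99A3, which was highest there by less than 2-fold over the other arrays. Among the 5 annotated genes on either side of each cluster, 7 were tested and 0 were at least 2-fold higher on lc1 mutant 1 than on each other array. One of the 7, LOC4335086, was under the floor on all 4 arrays, so it gives no measured difference. The other 6 ran from -0.28 to 0.48 on lc1 mutant 1 and from -0.36 to 0.16 on lc1 mutant 2, relative to the wild-type mean.

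**Figure D4:**
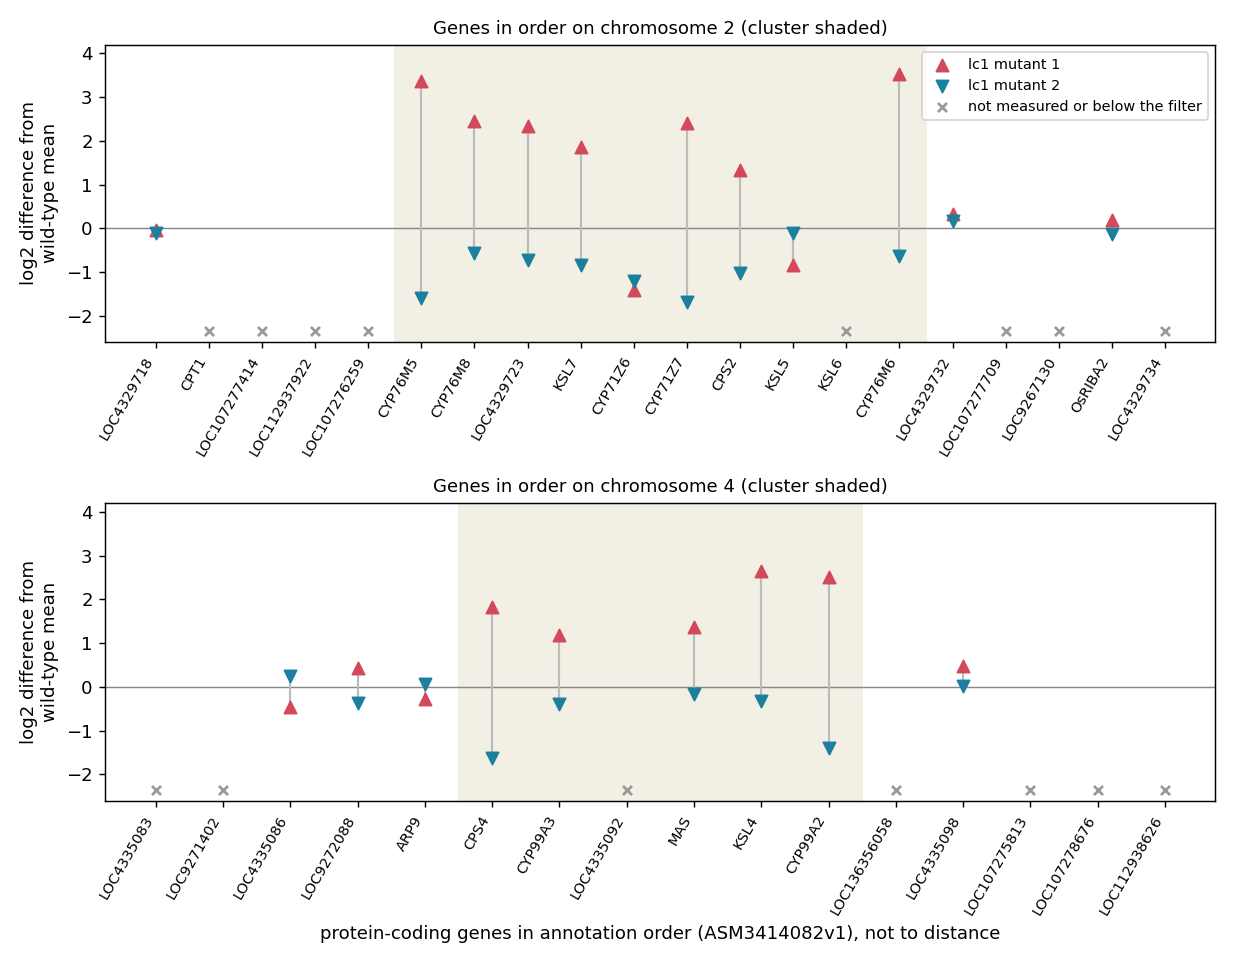
Log2 difference from the wild-type mean on lc1 mutant 1 (upward triangles) and lc1 mutant 2 (downward triangles) for genes in annotation order around the clusters, with clusters shaded and crosses for genes without a tested probe set. Inside the clusters lc1 mutant 1 is above 0 and lc1 mutant 2 below it for all measured genes but CYP71Z6 and KSL5, and the 6 flanking genes above the floor on at least 1 array stay between -0.36 and 0.48.

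Of the other phytoalexin genes, 8 of 17 listed names were matched and 7 had a probe set, all tested. In all, 0 of the 7 passed limma, with 0 at an unadjusted p under 0.05. At least 2-fold higher on lc1 mutant 1 than on each other array were 5, beside 2.38% of tested probe sets. These 5 lie in the clusters and are already counted there. CYP701A8 is the only gene of the 7 outside the clusters, and it did not reach 2-fold. CYP76M6 is of the P450 family of CYP76M7. On its brighter probe set it gave 22.4 and 19.9 in the wild type and 241.8 on lc1 mutant 1. It gave 13.7 on lc1 mutant 2, near the floor of that array, 13.0. Its log2 difference was 1.45 ± 1.06 (SE), and its dimmer probe set gave 0.18 ± 0.43 (SE). CYP76M5 gave 18.5 and 18.6, then 191.4 and 6.17, with lc1 mutant 2 under the floor and a log2 difference of 0.89 ± 1.25 (SE). CYP99A2, beside KSL4 and of the family of CYP99A3, gave 84.7 and 72.2 in the wild type against 443.6 and 29.7. MAS, a dehydrogenase known for the last step to momilactone A, gave 44.3 and 38.0 against 105.8 and 36.9. At the low end of the list, KSL5 had a log2 difference of -0.47 ± 0.34 (SE) and CYP701A8 one of 0.29 ± 0.48 (SE). All 7 were lower on lc1 mutant 2 than on both wild-type arrays, beside 37.4% of tested probe sets. MAS was 1.03-fold and KSL5 1.05-fold under the lower one. With signals as deposited this did not hold for either. MAS then gave 36.5 on lc1 mutant 2 against 35 on wild type 2, and KSL5 gave 80.9 against 78.9.

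Gibberellin synthesis draws on the same precursor. Of 10 listed names, 4 genes had a tested probe set, 0 passed limma (0 at an unadjusted p under 0.05 on the brightest probe set, with a log2 difference of -0.79 ± 0.29 (SE) on the dimmer probe set of KO1), and 0 were at least 2-fold higher on lc1 mutant 1 than on each other array. CPS1 makes ent-copalyl diphosphate, as CPS2 does, but for gibberellin. It gave 199.7 and 240.2 in the wild type, 154.1 on lc1 mutant 1 and 200.4 on lc1 mutant 2, so lc1 mutant 1 was its lowest array. KS1, the kaurene synthase, gave 582.7 and 518.7 in the wild type, 275.0 on lc1 mutant 1 and 461.3 on lc1 mutant 2, a log2 difference of -0.63 ± 0.29 (SE). KO1 (LOC4341347, also named KO2), an ent-kaurene oxidase, gave 167.5 and 212.3 against 133.4 and 144.9, whereas CYP701A8, its relative in phytoalexin synthesis, gave 289.4 and 237.5 against 573.3 and 179.2. KAO, the next oxidase towards gibberellin, had a log2 difference of 0.26 ± 0.34 (SE).

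The plastid MEP pathway supplies the precursor. Of 18 listed names 6 genes had a tested probe set, among them both genes named MCS. With limma 0 of the 6 passed (0 at an unadjusted p under 0.05), the median was 0.29, and 0 were at least 2-fold higher on lc1 mutant 1 than on each other array. ISPE, the kinase of the pathway, had the largest positive log2 difference, 0.55 ± 0.31 (SE), with signals of 48.7 and 51.4 against 78.5 and 68.4. MCS (LOC4330320), the cyclase of the pathway, gave 176.6 and 211.0 against 335.6 and 216.1, and the other gene named MCS, LOC4341801, gave -0.66 ± 0.36 (SE). DXR, the reductoisomerase that commits carbon to the pathway, was bright on all 4 arrays, with 1143 and 938.8 in the wild type against 1036 and 1133, a log2 difference of 0.06 ± 0.20 (SE).

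Among the regulators, 6 genes were tested, 0 passed limma and 2 had an unadjusted limma p under 0.05, both higher in lc1, beside 3.39% of all tested probe sets. WRKY76 and WRKY62 encode transcription factors known to repress rice defence genes. WRKY76 gave 161.6 and 433.8 in the wild type, 2082 on lc1 mutant 1 and 1010 on lc1 mutant 2, a log2 difference of 2.45 ± 0.47 (SE) with a limma adjusted p of 0.211. WRKY62 gave 158.4 and 348.0 against 1336 and 756.3, a log2 difference of 2.10 ± 0.40 (SE) with a limma adjusted p of 0.206. Both lc1 arrays were above both wild-type arrays for the pair, as they were for CYP76M7, not for the other 8 genes, and for 16.4% of tested probe sets. The low end of the list held MPK3 (LOC4328297, chromosome 2) at -0.20 ± 0.23 (SE) and MPK6 (LOC4349225, chromosome 10) at 0.18 ± 0.23 (SE). These genes were matched by name only. Whether they are the kinases known by these names from defence signalling was not tested. Another gene named MPK3, LOC4332475 on chromosome 3, gave 288.5 and 221.6 in the wild type, 479.9 on lc1 mutant 1 and 207.9 on lc1 mutant 2. Its log2 difference was 0.32 ± 0.39 (SE). The key activators DPF and TGAP1 were not matched by name and are not analysed here.

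Lists of defence-related genes outside the pathway were set beside these values. The jasmonate list was chosen because earlier results of these data showed it unequal on the lc1 arrays. Its counts are therefore a description and no independent comparison. Of 18 tested genes for jasmonate synthesis and JAZ repressors, 7 were at least 2-fold higher on lc1 mutant 1 than on each other array, and of 9 chitinase genes 3 were, beside 2.38% of all tested probe sets. Both lc1 arrays lay above both wild-type arrays for 8 of the 18 and 6 of the 9, beside 16.4% of tested probe sets. With limma 0 genes of either list passed. At an unadjusted limma p under 0.05 there were 7 and 3, all higher in lc1, beside 3.39% of probe sets. Other genes of these lists had close signals on lc1 mutant 1 and 2, such as AOC with 2102 and 2209 and CHT11 with 2814 and 2663. The list medians relative to the wild-type mean were 1.03 and 1.48 on lc1 mutant 1 and 0.13 and 0.36 on lc1 mutant 2. The summed jasmonate signal was 15373 and 15841 in the wild type against 23761 and 17072 in lc1, and the summed chitinase signal 8047 and 9180 against 18604 and 10273. One gene named JAZ2 (LOC4342421) and CHT7 were under the floor on all 4 arrays. The part of these responses, of the Gapdh ratio and of array level in the phytoalexin values was not tested.

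The named genes with the most similar pattern over the 4 arrays were ranked by Euclidean distance between centred log2 signals and the mean profile of the 9 genes, among 2754 probe sets outside the lists. The mean profile was -0.27 and -0.43 in the wild type, 1.61 on lc1 mutant 1 and -0.91 on lc1 mutant 2. ABCG32 and OsVIT1.2 were nearest, both at 0.22, followed by BGLU22 at 0.42, LAC3 at 0.43 and GLO3 at 0.51. Within the 9 genes the distances ran from 0.42 for KSL7 to 2.42 for KSL10 and 2.79 for CYP71Z6. OsVIT1.2 gave 313.9 and 303.5 in the wild type, 1403 on lc1 mutant 1 and 203.8 on lc1 mutant 2, in the order of CPS2. With 4 arrays this likeness describes these arrays only.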

How the data were processed

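Each deposited value is a linear MAS 5.0 intensity (signal) of 1 probe set, which the authors computed with the Affymetrix Microarray Suite, version 5.0, per the series' design text. The submitters' processing notes name R 1.8.0. Detection calls, scaling target and probe-level data were not used here. Of 57381 probe sets, 123 controls were left out. The 18 values of 0 were set to 0.05, and each array was scaled to the geometric mean of the 4 medians. The floor is the 95th percentile of 23 Tag and TrpnX controls, and folds against the wild type use its geometric mean. Log2 signals were tested with limma 3.58.1 (R 4.3.3, intensity trend, 2 residual degrees of freedom, 2-sided, Benjamini-Hochberg over 34355 probe sets). The step was also run on simulated arrays with the same change on both lc1 arrays, which does not cover lc1 arrays that disagree. The number of arrays limits precision.

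Genes were named through the platform annotation and the gene table of assembly ASM3414082v1, used for names, chromosomes and gene order. For a gene with several probe sets the brightest by mean log2 signal was used. Of 57258 probe sets, 22436 had 1 gene, 95 several and 34727 none. The genes and lists were chosen with earlier results of these data known. Named genes are the 10 of the rule and, from each list of other pathway genes, the 2 tested genes with the largest and the 2 with the smallest log2 difference, plus the 5 genes of most similar pattern. CYP71Z7, CYP99A2, MAS, LOC4329723, LOC4335086, AOC, CHT11 and the MPK3 gene LOC4332475 were named after their values were seen. No 2 arrays shared more than 1.64% of identical signals. Deviations of same-numbered arrays from their group means correlated at -0.04 over tested probe sets, and the labels tie the numbers to no shared plant or day, so the arrays were not taken as pairs. Alternatives were other scalings, filters, a floor on low signals, no intensity trend, the replicate number as a block, and each array left out.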

Additional observations from a re-analysis of the deposited data

How the results depend on the processing

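The counts of all tested probe sets called by limma, 8 higher and 1 lower, depended on the setting. They were 1 and 0 with signals as deposited, 4 and 0 after quantile normalization, 2 and 0 without a filter, 20 and 12 with a filter at the 60th percentile, 168 and 109 with low signals raised to the floor, and 0 and 0 without the intensity trend. A common trimmed mean gave 3 lower. Leaving out 1 array gave 4 to 679 higher and 0 to 484 lower. The replicate block, for which the data gave no pairing, called 385 higher and 249 lower. Of the 9 genes, 1 passed with signals raised to the floor (CYP76M7, limma adjusted p = 0.000414), 2 passed under the replicate block (CYP76M7 and KSL10) and 0 to 8 when 1 array was left out. The median of the 9 genes, 0.51, was 0.78 with signals as deposited, 0.51 with a common trimmed mean and 0.58 after quantile normalization. The filter, floor, trend and block settings could not change it, since all 9 genes passed each filter and lay above the floor. With 1 array left out it ran from -0.85 to 1.86. The branch medians, 0.40 for momilactone and 0.51 for phytocassane, ran from -0.39 to 1.83 and from -0.85 to 1.86. With signals as deposited the median on lc1 mutant 1 was 2.29 and on lc1 mutant 2 -0.73. With 1 other array left out these ran from 1.86 to 2.19 and from -1.12 to -0.66. With 1 array left out, single genes ran from -1.01 to 1.34 (CPS2), -1.63 to 1.83 (CPS4), -0.33 to 2.65 (KSL4), -0.85 to 1.86 (KSL7), -1.004 to 4.09 (KSL10), -0.56 to 2.46 (CYP76M8) and -0.39 to 1.19 (CYP99A3). The dimmer KSL7 probe set gave -0.67. CYP76M7 and CYP71Z6 kept their sign under the other scalings. In the remaining settings their sign could not change, since both lc1 arrays lay on the same side of both wild-type arrays. The cause of these changes was not tested. Signals near the floor, as for KSL4 and KSL7 and for CPS4 on lc1 mutant 2, have the least certain folds.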

Other observations

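The wild-type arrays also differed for some of these genes. KSL10 was 4.26-fold higher on wild type 1 than on wild type 2, and KSL7 was 1.56-fold higher there. WRKY76 and WRKY62 lay the other way, at 161.6 and 158.4 on wild type 1 against 433.8 and 348.0 on wild type 2.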
